A study of Homo sapiens with 18 samples.

Results

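H19, IGF2 and 5 further imprinted genes of chromosome band 11p15 (CDKN1C, PHLDA2, KCNQ1, KCNQ1OT1 and SLC22A18) were described in 18 RNA-seq libraries of pancreatic ductal adenocarcinoma cells, as 7 of the 40266 gene symbols in the table. The genes were picked by symbol, and H19 drew attention through its level in Panc89 Holoclone against Panc89 Paraclone cells, which is therefore given below as a description without a test. Of the human lines, Panc1 came from a primary tumor and Panc89 from a metastasis in a lymph node. Each line was sequenced as parental cells, as Holoclone cells and as Paraclone cells, with 3 replicates in each of the 6 groups. Holoclone and Paraclone cells were each grown from a single cloned cell and named after the shape of their colonies, and the replicates are passages. A p-value here thus measures the spread between passages of 1 culture and not between independent clones. The values are log2(TPM + 1), where TPM is a transcript level scaled by transcript length and library, and differences are on this log2 scale unless a TPM is named. Adding 1 before the logarithm makes differences of genes near or under 1 TPM smaller than those of the TPM.

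The labelled cell types were compared with their markers. Both lines had the keratins KRT8, KRT18 and KRT19, which made up most of the summed level of 6 epithelial markers, 2590 to 5020 TPM per library in Panc1 and 3050 to 4170 TPM in Panc89. The other epithelial markers were lower in Panc1 than in Panc89. In parental Panc1 against parental Panc89 cells the group mean of CDH1 (E-cadherin) was 1.35 against 75.3 TPM, that of EPCAM 11.2 against 185 TPM and that of the splicing factor ESRP1 1.5 against 122 TPM. Of the 6, 4 were higher in parental Panc89, 1 was lower and 1 did not pass the test (limma, Benjamini-Hochberg adjustment over the 16093 genes tested, threshold 0.05). The 4 mesenchymal markers summed to 2050 to 5060 TPM in Panc1 and 5.36 to 31.6 TPM in Panc89, and in Panc1 nearly all of this was VIM (vimentin). The group mean of VIM was 2465 TPM or more in the 3 Panc1 groups and at most 0.361 TPM in Panc89. ZEB1 was at 17.2 TPM in parental Panc1 and 0.0519 TPM in parental Panc89, CDH2 at 4.67 and 3.10 TPM and FN1 at 0.213 and 3.60 TPM. Of these 4, 1 was higher in parental Panc89, 2 were lower and 1 did not pass the test. Between the Panc1 clones, 4 of the 6 epithelial markers were higher in Holoclone cells and 2 lower, against 27.4% and 9.97% of all genes. EPCAM had 29.2 TPM in Holoclone and 1.73 TPM in Paraclone cells, and KRT19 had 222 and 1224.5 TPM. Of the mesenchymal markers 1 was higher and 1 lower. CDH2 had 13.8 and 1.38 TPM, and VIM 2465 and 4318.5 TPM. Their part in the results was not tested.

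Markers of other cell types were low apart from a few genes. The 4 fibroblast markers summed to 0.967 to 14.3 TPM in Panc1 and 9.97 to 27.3 TPM in Panc89, nearly all of it COL1A1. The 3 leukocyte markers summed to 52.2 to 151 TPM in Panc1 and 8.55 to 63.1 TPM in Panc89, nearly all of it CD68, a lysosomal protein, while the group means of PTPRC and CD3E were at most 0.482 and 0.0201 TPM. The 3 endothelial markers summed to at most 0.273 TPM in Panc1 and to 1.01 to 69.1 TPM in Panc89. Some of these genes also differed between groups, only in part in the order of members described below. CD68 had group means of 60.2 TPM in Holoclone, 91.1 TPM in parental and 134 TPM in Paraclone cells of Panc1, the order that IGF2 has there. In Panc89, where IGF2 was near 0, CD68 had 21.7, 11.1 and 52.5 TPM in Holoclone, parental and Paraclone cells. PECAM1 averaged 60.1 TPM in parental Panc89, the group with the highest H19, but 0.856 TPM in Holoclone and 4.54 TPM in Paraclone cells. CDH5, also endothelial, had the same order, at 3.78, 0.392 and 1.59 TPM in parental, Holoclone and Paraclone cells of Panc89. The part of these genes in the results was not tested. The 4 acinar and islet markers summed to at most 0.291 TPM in Panc1 and 1.36 TPM in Panc89. Replicates of a group correlated across genes at 0.954 to 0.992. Depth is unknown, since TPM keep no read totals.

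Imprinted genes are expressed mainly from the copy inherited from one parent, as set by DNA methylation laid down in the germ line. At 11p15, H19, a long noncoding RNA, is expressed from the maternal copy, and IGF2, a growth factor of fetal tissue that signals through IGF1R, from the paternal copy. A control region upstream of H19 governs which gene uses the shared enhancers. It is methylated on the paternal copy and bound by the insulator protein CTCF on the maternal copy. A neighboring domain holds CDKN1C, PHLDA2, KCNQ1 and SLC22A18, expressed from the maternal copy, and KCNQ1OT1, an antisense noncoding RNA expressed from the paternal copy that silences its neighbors. Both H19 and IGF2 are abundant in fetal tissues and fall after birth, and their renewed expression is known from many tumors. The libraries hold no allele or methylation data, so imprinting itself was not measured.

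H19 lies on GRCh38 chromosome 11 from 1995166 to 2004552 on the minus strand (GENCODE 44) and IGF2 from 2129112 to 2158391 on the same strand. KCNQ1 (2444654 to 2849105, plus strand) contains the whole of KCNQ1OT1 (2597308 to 2700003, minus strand), followed by CDKN1C (2883213 to 2885775, minus strand), SLC22A18 (2899721 to 2925246, plus strand) and PHLDA2 (2928273 to 2929420, minus strand). The most distant member, PHLDA2, starts 924.9 kb from the start of H19. H19 is also the host of miR-675, whose hairpin lies from 1996759 to 1996831, inside an exon of 13 of the 31 annotated H19 transcripts. Its mature forms (RefSeq, GRCh38.p14) are shown because they are the small RNAs that an H19 transcript can carry, with the seed, bases 2 to 8, in capitals; the 2 arms have different seeds.
hsa-miR-675-5p: uGGUGCGGagagggcccacagug
hsa-miR-675-3p: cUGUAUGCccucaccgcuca
The hairpin gene MIR675 was listed at 0 in all 18 libraries, which were made from mRNA, so H19 RNA levels below say nothing of the mature miRNAs.

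The promoter of H19 is shown because H19 has the widest range of the 7 genes, and its control is by methylation of CG dinucleotides. RefSeq gave a promoter for 1 of the 7 members, H19. The window of 300 bases, 250 before and 50 after the start site, lies at chr11:2001217-2001516 on the minus strand of GRCh38.p14, and its CG dinucleotides are in capitals.
H19 promoter: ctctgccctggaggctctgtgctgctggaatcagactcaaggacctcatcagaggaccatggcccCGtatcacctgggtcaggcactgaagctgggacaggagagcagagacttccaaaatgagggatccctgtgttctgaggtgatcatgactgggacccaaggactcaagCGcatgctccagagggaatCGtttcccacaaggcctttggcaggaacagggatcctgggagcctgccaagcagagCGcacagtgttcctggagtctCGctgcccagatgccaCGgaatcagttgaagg
The start that RefSeq uses here lies inside the GENCODE gene, downstream of its outer end at 2004552, from which the distances given are measured. Of the 31 GENCODE transcripts of H19, 30 also start downstream of that end. The window holds 6 CG dinucleotides, against a median of 14 over 35116 promoters of the same length, and 36.8% of promoters hold as few. On either strand it has no CACGTG (in 7.26% of promoters), no GGGCGG (in 45.0%) and no TATAAA (in 11.5%). A missing match says only that these letters are not in this window.

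H19 was abundant in 5 of the 6 groups and low in Panc89 Paraclone cells. Parental Panc89 libraries had 3545, 5095 and 4357 TPM, which made H19 the gene of rank 34, 15 and 18 among all genes of those libraries and between 0.36% and 0.516% of the whole TPM. Panc89 Holoclone libraries had 2471, 2075 and 2063 TPM, at rank 45, 66 and 70. Panc89 Paraclone libraries had 10.2, 23.2 and 13.1 TPM, at rank 8289, 5750 and 7412, and lay below all other libraries of the study. The parental Panc89 cells were thus above both clones grown from that line, and no libraries of the 3 groups overlapped. In log2(TPM + 1) the means ± SD (n = 3) were 12.07 ± 0.26 in parental, 11.10 ± 0.15 in Holoclone and 3.97 ± 0.57 in Paraclone cells of Panc89. The Holoclone minus Paraclone difference, the value by which H19 was chosen, was 7.13, a TPM ratio of 142. Relative to the parental cells, the difference was −0.96 in Holoclone and −8.10 in Paraclone cells. In bulk libraries such as these, fewer cells with H19 and less H19 RNA per cell cannot be told apart.

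In Panc1, H19 stayed within a narrow range. Parental Panc1 libraries had 284, 293 and 309.7 TPM, Paraclone libraries 301.5, 327 and 259 TPM, and Holoclone libraries 130.3, 254 and 189 TPM. All 3 Holoclone libraries were below the 3 Paraclone and the 3 parental libraries, with the lowest of them well apart, and Paraclone and parental libraries overlapped. The Holoclone minus Paraclone difference was −0.67 (SE 0.25) with an adjusted p of 0.0465. This call was made in 4 of 12 alternative settings, over which the difference ranged from −0.95 to −0.43 and the adjusted p from 0.00514 to 0.225. Of the 6 fits without 1 library it was kept only without Holoclone replicate 2; the adjusted p was 0.225 without Holoclone replicate 1, 0.0892 without Holoclone replicate 3, and 0.0939, 0.14 and 0.055 without Paraclone replicate 1, 2 and 3. It was also lost with 0.1 added in place of 1 (0.0521), without the filter on low values (0.0917) and with the groups fitted alone (0.0913). Against parental Panc1 the Holoclone difference of −0.68 (SE 0.25) did not pass (adjusted p = 0.106), except without Holoclone replicate 2 (−0.91, adjusted p = 0.0382; range over the alternatives 0.0382 to 0.366). The Paraclone minus parental difference was −0.0048 (SE 0.25, adjusted p = 1), and it was 0.21 and 0.20 after upper quartile and median-of-ratios scaling.

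Between the parental lines, H19 was higher in Panc89 by 3.85 (SE 0.25, adjusted p = 1.98e-09), a TPM ratio of 14.6. All 3 Panc89 libraries were above all 3 Panc1 libraries, and the call was made in 12 of 12 alternatives, with differences from 3.73 to 4.15. In order of its mean level, H19 ran from parental Panc89 through Panc89 Holoclone, parental Panc1, Panc1 Paraclone and Panc1 Holoclone to Panc89 Paraclone cells. Parental Panc1 and Panc1 Paraclone were the only neighbors in this order whose libraries overlapped.

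**Figure D1:**
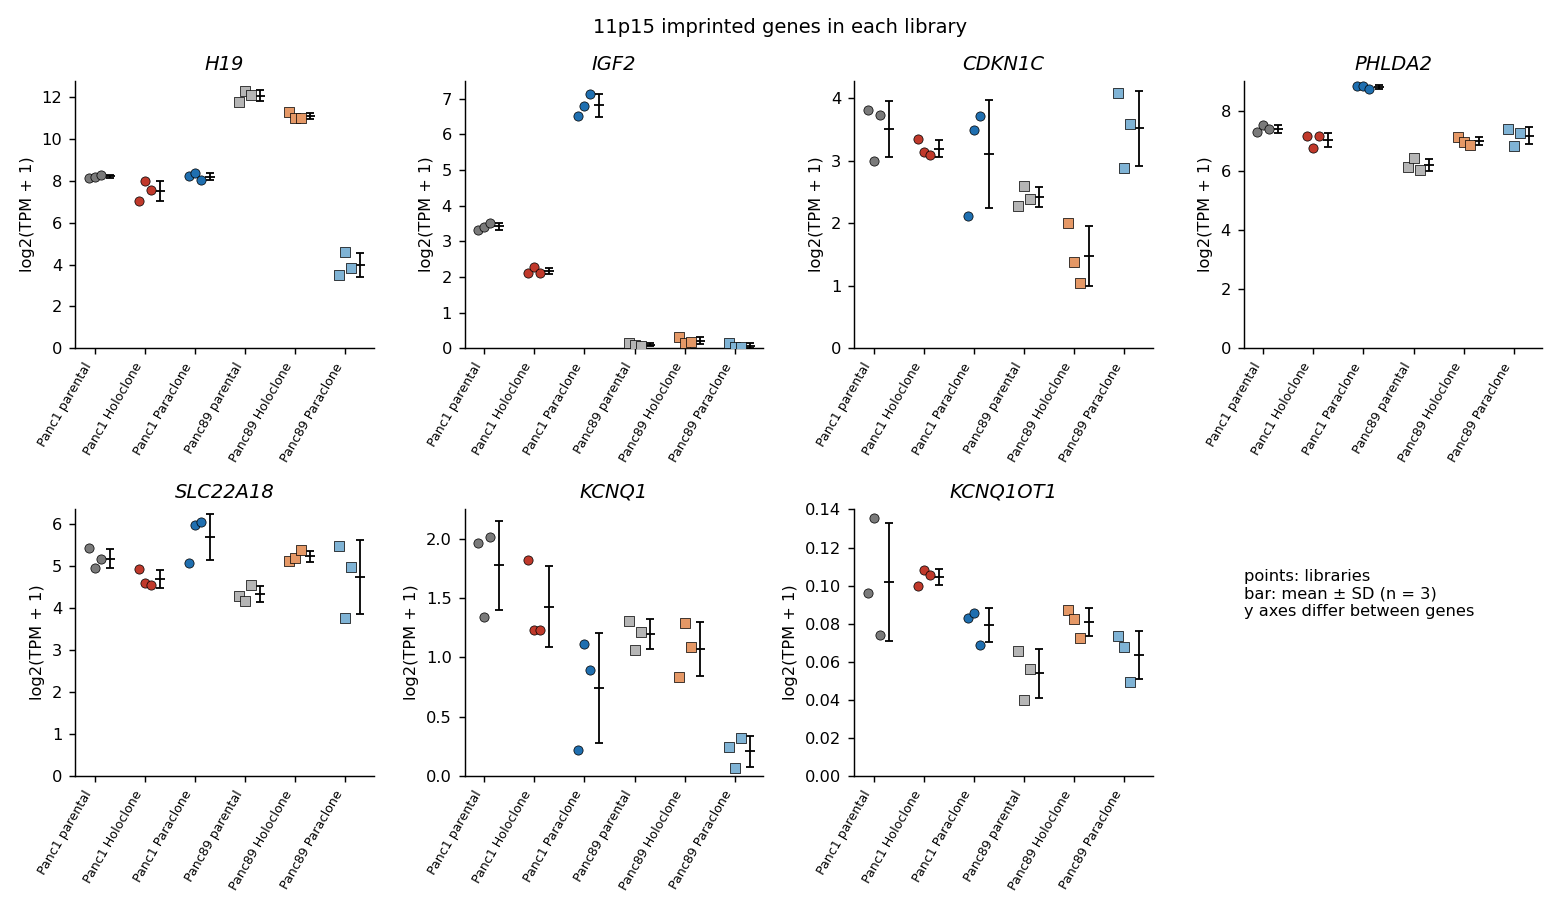
The 7 genes in each library, as log2(TPM + 1) on the vertical axis (scales differ between genes) against the 6 groups on the horizontal axis; points are libraries and bars the mean ± SD (n = 3). H19 falls to 3.97 in Panc89 Paraclone cells, while IGF2 reaches 6.81 in Panc1 Paraclone cells and is near 0 in all Panc89 groups.

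IGF2 followed another pattern, with its highest level in Panc1 Paraclone cells and almost none in Panc89. Panc1 Paraclone libraries had 90.2, 109 and 140 TPM, parental Panc1 libraries 8.92, 9.66 and 10.5 TPM, and Panc1 Holoclone libraries 3.33, 3.84 and 3.34 TPM. None of these 3 groups overlapped, and the parental cells lay between the clones. In log2(TPM + 1) the means were 6.81 ± 0.31, 3.42 ± 0.11 and 2.17 ± 0.09 (SD, n = 3). Panc1 Holoclone cells were lower than Paraclone cells (−4.64, SE 0.14, adjusted p = 2.5e-12), with the Paraclone TPM 32.3 times as high. Paraclone cells were higher than parental Panc1 by 3.40 (SE 0.14, adjusted p = 1.51e-10), a TPM ratio of 11.7, and Holoclone cells were lower than parental (−1.25, SE 0.14, adjusted p = 3.36e-05). These 3 comparisons share libraries, and each call was made in 12 of 12 alternatives.

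All 9 Panc89 libraries had 0.0168 to 0.25 TPM of IGF2, so that parental Panc89 was lower than parental Panc1 (−3.31, SE 0.14, adjusted p = 1.4e-11). This call, too, was made in 12 of 12 alternatives. Panc89 Holoclone and Paraclone cells differed by 0.15 at levels under 1 TPM, where the log2(TPM + 1) scale leaves little room. IGF2-AS, a noncoding RNA whose gene span of 8166 bases lies inside that of IGF2 on the opposite strand, was under the level needed for a test. It reached 0.426, 1.32 and 1.58 TPM in Panc1 Paraclone libraries, at most 0.258 TPM in the other Panc1 libraries and at most 0.0179 TPM in Panc89. INS-IGF2, the readthrough transcript, was listed at 0 in all 18 libraries, as were INS, the insulin gene, and the hairpin gene MIR483 inside IGF2. The gene span of INS-IGF2, introns included, overlaps that of IGF2 by 25854 bases on the same strand. How much sequence the spliced transcripts share was not measured. How transcripts that share sequence were split rests on the quantification, and whether it used the strand is not given in the sources used here.

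**Figure D2:**
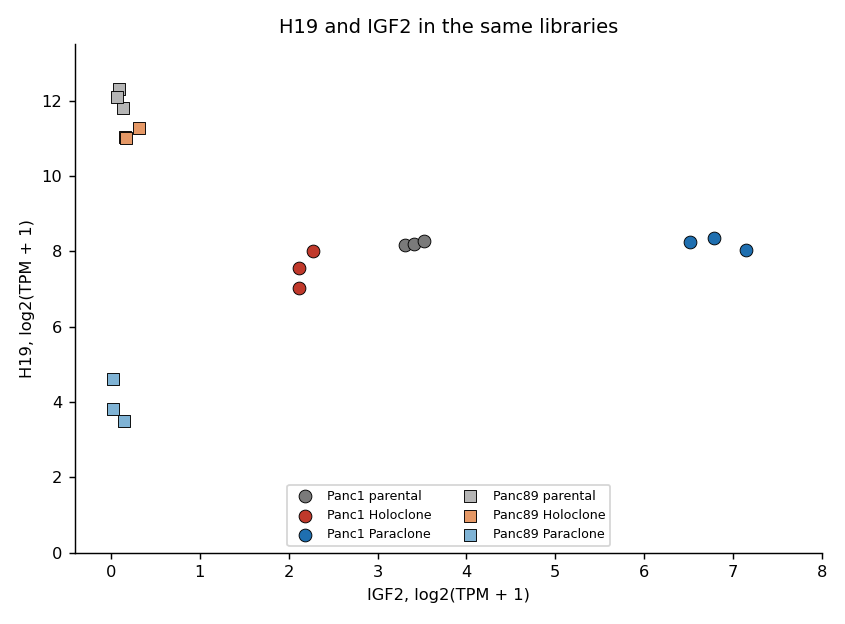
IGF2 (horizontal) against H19 (vertical), both in log2(TPM + 1); each point is 1 of the 18 libraries, circles are Panc1, squares Panc89, and colors the cell variants. Panc1 libraries spread along the IGF2 axis from 2.11 to 7.14 and Panc89 libraries along the H19 axis from 3.48 to 12.32.

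Placed side by side, H19 and IGF2 did not move as a pair in Panc1. In Panc89, IGF2 was near 0 in every group and had no room to fall with H19. The H19 minus IGF2 difference was 4.76 to 4.85 in parental Panc1, 4.92 to 5.72 in Panc1 Holoclone and 0.89 to 1.73 in Panc1 Paraclone libraries. It was 11.65 to 12.22 in parental Panc89, 10.84 to 10.95 in Panc89 Holoclone and 3.33 to 4.58 in Panc89 Paraclone libraries. In each line the Paraclone libraries had the lowest difference. In Panc1 this came with a higher IGF2 level and in Panc89 with a lower H19 level. Panc89 libraries had at most 0.322 of IGF2 in log2(TPM + 1), so the difference there is close to the H19 level itself. H19 was chosen by that level, and the Panc89 values are a description. Over all 18 libraries, which share 2 lines and 4 clones, Pearson's r between the genes was −0.121, given as a description.

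PHLDA2, which encodes a small pleckstrin homology domain protein known to limit placental growth, was the other member with a firm difference in Panc1. Panc1 Paraclone libraries had 458.5, 464 and 432 TPM, parental Panc1 libraries 155, 186 and 167 TPM, and Panc1 Holoclone libraries 144, 107 and 143 TPM. All Paraclone libraries were above all others of the study, and the Holoclone libraries were below the parental ones. Holoclone minus Paraclone was −1.78 (SE 0.16, adjusted p = 3.75e-07), with the Paraclone TPM 3.43 times as high, and Paraclone minus parental was 1.41 (SE 0.16, adjusted p = 7.21e-06). The Holoclone minus parental difference of −0.37 (SE 0.16) did not pass (adjusted p = 0.159). Parental Panc89 libraries, at 68.1, 84.8 and 64.2 TPM, were lower than parental Panc1 (−1.22, SE 0.16, adjusted p = 4.58e-06). Each of the 3 calls was made in 12 of 12 alternatives. In Panc89, both clones lay above the parental cells, by 0.80 for Holoclone and 0.99 for Paraclone cells, and the clones overlapped (−0.19), given as a description. Over the 18 libraries, PHLDA2 and IGF2 had a Pearson's r of 0.878.

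CDKN1C, which encodes the cyclin-dependent kinase inhibitor p57, was expressed at low levels in every group. Parental Panc1 libraries had 13.0, 6.96 and 12.2 TPM, Holoclone libraries 9.20, 7.82 and 7.50 TPM, and Paraclone libraries 3.36, 10.3 and 12.1 TPM, so that the 3 Panc1 groups overlapped. Holoclone minus Paraclone was 0.08 (SE 0.38, adjusted p = 0.918), and its sign turned under both scalings and without Paraclone replicate 1, the lowest of its group (−0.41, adjusted p = 0.371; range over the alternatives 0.371 to 1). Parental Panc89 libraries, at 3.84, 5.03 and 4.25 TPM, were lower than parental Panc1 (−1.09, SE 0.38, adjusted p = 0.0205). This was called in 7 of 12 alternatives (adjusted p from 0.00702 to 0.075). It was lost without parental Panc1 replicate 1 (0.075) or 3 (0.0659), without parental Panc89 replicate 1 (0.0593) and under both scalings. In the Panc89 clones CDKN1C ran opposite to H19. Holoclone libraries had 3.01, 1.59 and 1.07 TPM and Paraclone libraries 16.0, 6.4 and 11 TPM, without overlap, a difference of −2.04 given as a description. Parental Panc89 cells lay between them, with Holoclone cells at −0.94 and Paraclone cells at 1.10 from the parental mean.

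KCNQ1, which encodes the pore-forming subunit of a voltage-gated potassium channel, had at most 3.04 TPM in any library. In Panc1 the parental libraries had 2.92, 1.54 and 3.04 TPM, the Holoclone libraries 2.54, 1.35 and 1.34 TPM and the Paraclone libraries 0.162, 1.16 and 0.863 TPM. The Paraclone libraries were the lowest of Panc1 and did not overlap with either other group. Paraclone minus parental was −1.03 (SE 0.24, adjusted p = 0.00467), called in 11 of 12 alternatives and lost where the groups were fitted alone (adjusted p = 0.0624; range 0.00187 to 0.0624). Holoclone minus Paraclone was 0.69 (SE 0.24, adjusted p = 0.0348), called in 5 of 12 alternatives (adjusted p from 0.0194 to 0.173), and lost in the other 7. These were the fits without Holoclone replicate 1 (0.163) or Paraclone replicate 1 (0.173), with the replicate number as a block (0.078), without the filter (0.064), with the groups fitted alone (0.12) and under upper quartile (0.133) and median-of-ratios scaling (0.119). The difference between the parental lines, −0.58 (SE 0.24, adjusted p = 0.0441), was called in 2 of 12 alternatives (adjusted p from 0.0111 to 0.19). It was lost without parental Panc1 replicate 1 (0.137) or 3 (0.151), without parental Panc89 replicate 1 (0.0593), 2 (0.12) or 3 (0.079), and with the block (0.0857). It was also lost with a pseudocount of 0.1 (0.157), without the filter (0.0745) and under upper quartile (0.19) and median-of-ratios scaling (0.143). In Panc89 the Paraclone libraries, at 0.183, 0.0462 and 0.246 TPM, were again below the Holoclone libraries (0.782, 1.44 and 1.12 TPM) and the parental libraries (1.47, 1.09 and 1.33 TPM).

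KCNQ1OT1, the antisense RNA within KCNQ1, was at or under 0.0985 TPM in all 18 libraries and did not reach the level for a test. Its gene span of 102696 bases lies in full within that of KCNQ1, introns included, on the opposite strand. Group means lay between 0.05 and 0.10 in log2(TPM + 1), and every neighboring pair of groups in their order overlapped. Groups further apart in this order could separate. Panc1 Holoclone libraries lay above Panc1 Paraclone libraries, and parental Panc1 above parental Panc89 libraries. TPM is scaled by transcript length, so a low TPM of so long an RNA need not mean few reads.

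SLC22A18, a member of the solute carrier family of organic ion transporters, was measured at 12.7 to 65.2 TPM. Panc1 Paraclone libraries had 32.4, 61.6 and 65.2 TPM, parental Panc1 libraries 41.8, 30.0 and 34.7 TPM and Panc1 Holoclone libraries 29.4, 23.3 and 22.2 TPM. Holoclone libraries were below both other groups, while Paraclone and parental libraries overlapped. Holoclone minus Paraclone was −1.003 (SE 0.33, adjusted p = 0.027), called in 7 of 12 alternatives (adjusted p from 0.00722 to 0.11). It was lost without Holoclone replicate 2 (0.0715) or 3 (0.0841), without Paraclone replicate 2 (0.103) or 3 (0.11), and without the filter (0.0573). Parental Panc89 libraries, at 18.6, 16.9 and 22.3 TPM, were lower than parental Panc1 (−0.84, SE 0.33, adjusted p = 0.0362), called in 5 of 12 alternatives (adjusted p from 0.00347 to 0.169). It was lost under both scalings, without the filter (0.0695), without parental Panc1 replicate 1 (0.113) or 3 (0.0686) and without parental Panc89 replicate 1 (0.0785) or 2 (0.102). In Panc89, Holoclone libraries had 33.7, 35.4 and 40.6 TPM and Paraclone libraries 43.5, 12.7 and 30.4 TPM, which overlapped. SLC22A18AS, a noncoding RNA, has a gene span that overlaps that of SLC22A18 by 4093 bases on the opposite strand, introns included. SLC22A18AS was higher in Panc89 Holoclone libraries (7.84, 23.0 and 25.0 TPM) than in Panc89 Paraclone libraries (0.766, 0.867 and 1.53 TPM). Without knowledge of the strand setting, reads from sequence that such antisense transcripts share may not be separated. How much they share after splicing was not measured.

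**Figure D3:**
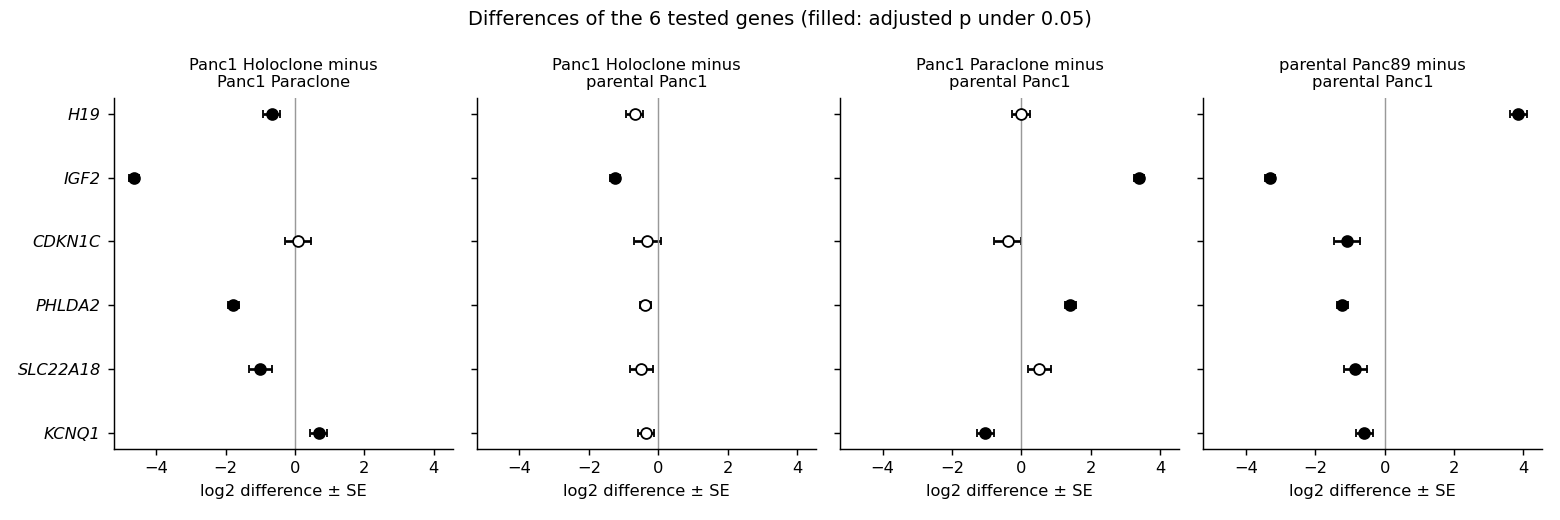
Log2 differences ± SE (horizontal, n = 3 libraries per group) of the 6 members that were tested, in 4 comparisons; filled points passed an adjusted p of 0.05 and open points did not. IGF2 has filled points in all 4 panels, from −4.64 in Panc1 Holoclone minus Paraclone to 3.40 in Panc1 Paraclone minus parental.

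Of the 7 members, 6 passed the filter on low values and 1, KCNQ1OT1, did not. In Panc1 Holoclone against Paraclone cells, 1 member was higher (KCNQ1) and 4 were lower (H19, IGF2, PHLDA2 and SLC22A18), where 27.4% of all 16093 tested genes were higher and 9.97% lower. In Panc1 Holoclone against parental cells, 0 were higher and 1 was lower (IGF2), against 5.87% and 5.06% of all genes. In Panc1 Paraclone against parental cells, 2 were higher (IGF2 and PHLDA2) and 1 was lower (KCNQ1), against 7.31% and 21.3%. In parental Panc89 against parental Panc1 cells, 1 was higher (H19) and 5 were lower, against 27.5% and 38.5%. The comparison of Panc89 Holoclone with Paraclone cells, by which H19 was chosen, called 22.4% of all genes higher and 13.3% lower. The median difference over all genes was 0.19 in Panc1 Holoclone minus Paraclone, −0.17 in Panc1 Paraclone minus parental and −0.18 between the parental lines. Upper quartile scaling moved these to 0, −0.0083 and 0.0625. With it the higher genes went from 73.3% to 47.4% of all calls in the first comparison, from 25.6% to 51.3% in the second and from 41.6% to 54.3% in the third. IGF2 and PHLDA2 kept their direction and their calls under both scalings in each comparison that called them.

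Around H19, 59 further genes of the table start within 1 Mb, of which 25 were tested. In Panc1 Holoclone against Paraclone cells 5 were higher and 4 lower, against 27.4% and 9.97% of all genes. After upper quartile scaling 1 was higher and 4 lower. The median was 0.00 against 0.19 over all genes. ASCL2 and MUC5B, among others, had little or no expression in Panc1, so their differences there lie near 0 and the median says little. The lower genes with the largest differences were IFITM10 (−3.54, SE 0.36, adjusted p = 2e-06; 1.38 against 27.0 TPM), CTSD, a lysosomal protease (−2.03, SE 0.17, adjusted p = 2.55e-07; 699.8 against 2921 TPM), and MRPL23, a protein of the mitochondrial ribosome (−0.935, SE 0.22, adjusted p = 0.00333). Among the higher genes were TSSC4 (0.99, SE 0.15), NAP1L4, a histone chaperone (0.64, SE 0.18), and BRSK2, a kinase (0.47, SE 0.15). CTSD and IFITM10 thus shared the direction of IGF2 and PHLDA2 in Panc1.

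Between the parental lines, 11 neighbors were higher in Panc89 and 9 lower, against 27.5% and 38.5% of all genes. Their median of −0.17 was 0.01 after upper quartile scaling. MUC6, MUC2, MUC5AC, MUC5B, LINC02688, TNNT3, MRPL23-AS1, TH and ASCL2 stayed under 1 TPM in all Panc1 libraries. They passed the filter only through Panc89 libraries, where they are higher, so the count of higher neighbors is a description. The gel-forming mucins MUC5B (5.22, SE 0.24; 37.3 ± 3.29 against 0.0278 ± 0.0070 TPM, SD, n = 3) and MUC2 (3.57, SE 0.35; 11 against 0.0105 TPM) were higher in Panc89. BRSK2 (−2.61, SE 0.15), TSSC4 (−1.98, SE 0.15) and NAP1L4 (−1.91, SE 0.18) were lower. The 2 lines also differ in mesenchymal markers such as VIM, as given above, and line and marker level cannot be told apart here.

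Panc89 Holoclone against Paraclone is the comparison by which H19 was chosen, and the neighbors were taken for their closeness to H19. Their counts there are a description and no test of the region. Of the 25 neighbors, 14 were called higher and 4 lower, against 22.4% and 13.3% of all genes. The median was 0.46 against 0.09 over all genes. ASCL2, TNNT3 and TH passed the filter only through Panc89 parental and Holoclone libraries, where they are higher, and MRPL23-AS1 only through parental Panc89. The 4 lower genes were MUC6, MUC5AC, MUC5B and LINC02688. These 4 passed only through Panc89 parental and Paraclone libraries, where they are higher than in Holoclone cells. Both counts thus hold genes that passed through the groups where they are high. The largest differences were those of TNNI2 (4.31) and TNNT3 (3.89), subunits of troponin in fast skeletal muscle, and of ASCL2 (3.73), a transcription factor of intestinal stem cells. In Holoclone libraries they had 33.0 ± 5.40, 14.4 ± 3.16 and 12.9 ± 2.28 TPM (SD, n = 3), and in Paraclone libraries 0.713, 0.0215 and 0.036 TPM. Parental Panc89 cells had 4.28, 1.71 and 3.97 TPM of these genes, between the clones, whereas H19 was highest in the parental cells. IGF2, 153.8 kb from H19, was near 0 in all these libraries.

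**Figure D4:**
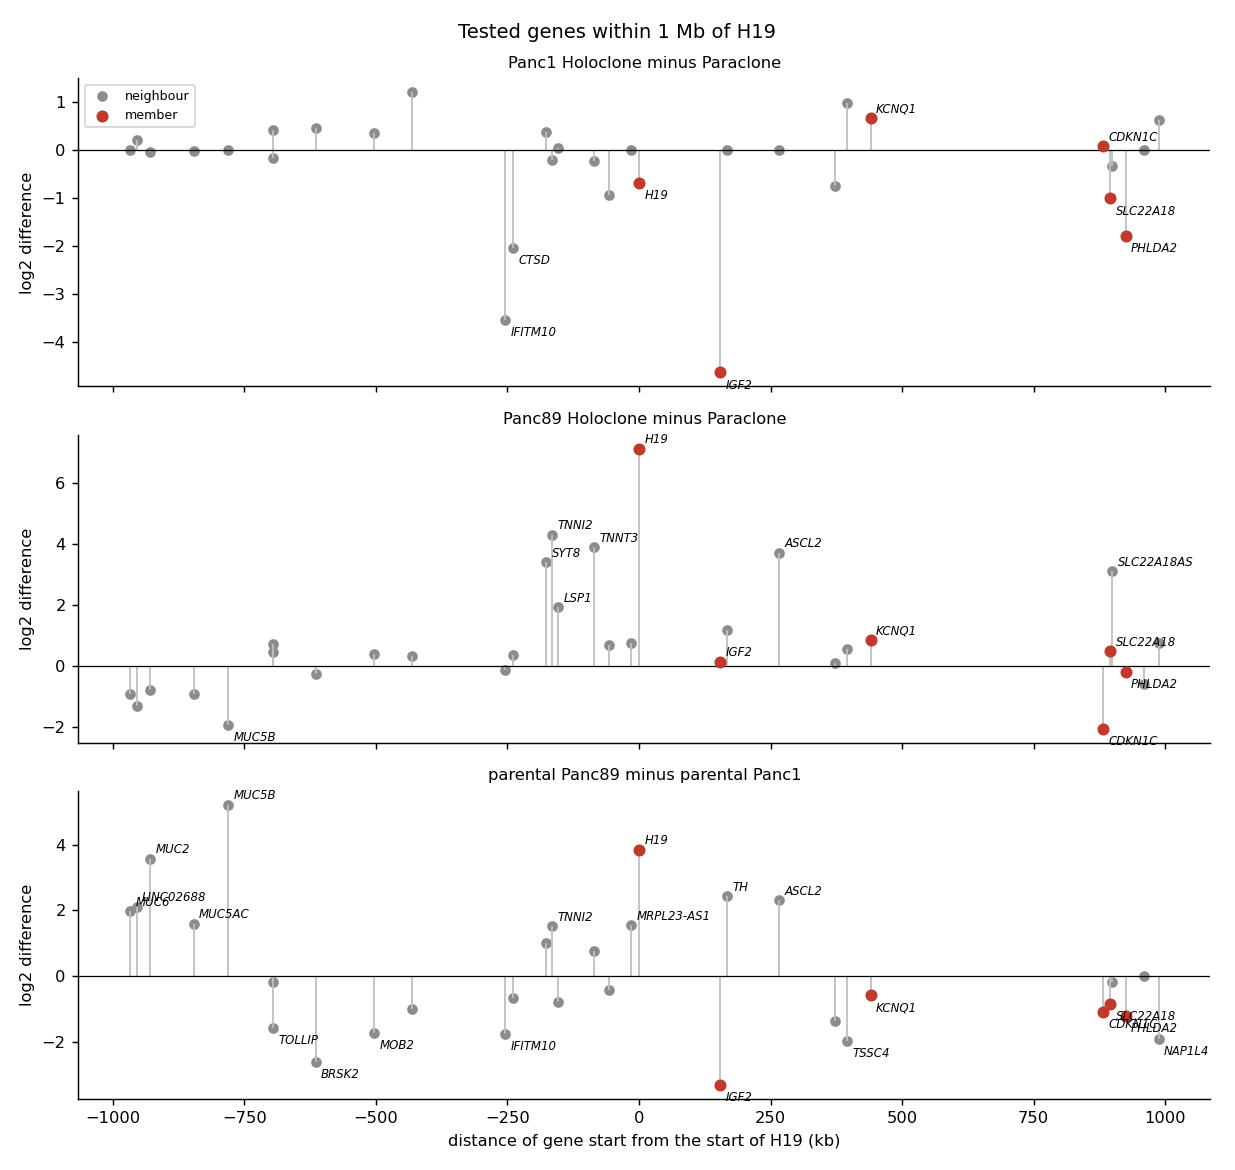
Log2 difference (vertical) of each tested gene within 1 Mb of H19 against the distance of its start from that of H19 in kb (horizontal, negative toward the end of the chromosome arm), in 3 comparisons; members are red and neighbors gray. In Panc1 the largest difference is that of IGF2 (−4.64), in Panc89 that of H19 (7.13), and between the parental lines that of MUC5B (5.22).

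Of 32 imprinted genes chosen outside the member list, most of them from other chromosomes, 21 were tested. In Panc1 Holoclone against Paraclone cells 8 were higher and 2 lower, against 27.4% and 9.97% of all genes. After upper quartile scaling 3 were higher and 3 lower. PLAGL1, a zinc finger transcription factor, was higher by 4.13 (SE 0.11, adjusted p = 1.38e-12), at 18.9 ± 2.43 against 0.127 ± 0.0198 TPM (SD, n = 3). MEST, a hydrolase-fold protein of fetal tissue, was higher by 2.95 (SE 0.14, adjusted p = 2.93e-10), and SGCE, epsilon-sarcoglycan, by 0.815 (SE 0.24, adjusted p = 0.0155). MEG3, a maternally expressed noncoding RNA, was lower (−0.63, SE 0.22, adjusted p = 0.0358; 27.9 against 43.4 TPM), and so was NAP1L5 (−0.96) at under 5 TPM. PLAGL1, MEST and SGCE were thus higher, and MEG3 and NAP1L5 lower, in the Panc1 clone with the lower IGF2. MEST was, however, highest in parental Panc1 cells (69.7 TPM), and Holoclone cells were lower than parental cells (−1.275, adjusted p = 2.05e-05).

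Between the parental lines, 5 of the 21 were higher in Panc89 and 12 lower, against 27.5% and 38.5% of all genes. The median was −0.62 against −0.18 over all genes, and the counts were 5 and 10 after upper quartile scaling. MEG3 (−3.76, SE 0.22; 0.691 against 22.3 TPM) and the neighboring transcripts SNHG14 (−2.08, SE 0.15) and SNRPN (−1.83, SE 0.21) of the Prader-Willi region were lower. PEG10, a gene derived from a retrotransposon, was higher (1.40, SE 0.47, adjusted p = 0.0166), as was BLCAP (0.89, SE 0.11). In the Panc89 clones, given as a description, 9 were called higher in Holoclone cells and 3 lower, against 22.4% and 13.3% of all genes. ASCL2 (3.73, also counted among the neighbors), PEG10 (2.99; 74.3 ± 10.4 against 10.9 ± 10.2 TPM) and SGCE (2.23; 35.5 ± 5.42 against 7.29 ± 4.08 TPM) had the largest differences upward among genes of at least 10 TPM. Of the 3 lower genes, GNAS, the stimulatory G protein subunit, reached that level (−0.35). PEG10 and SGCE, which lie side by side, were both higher in Panc89 Holoclone cells.

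**Figure D5:**
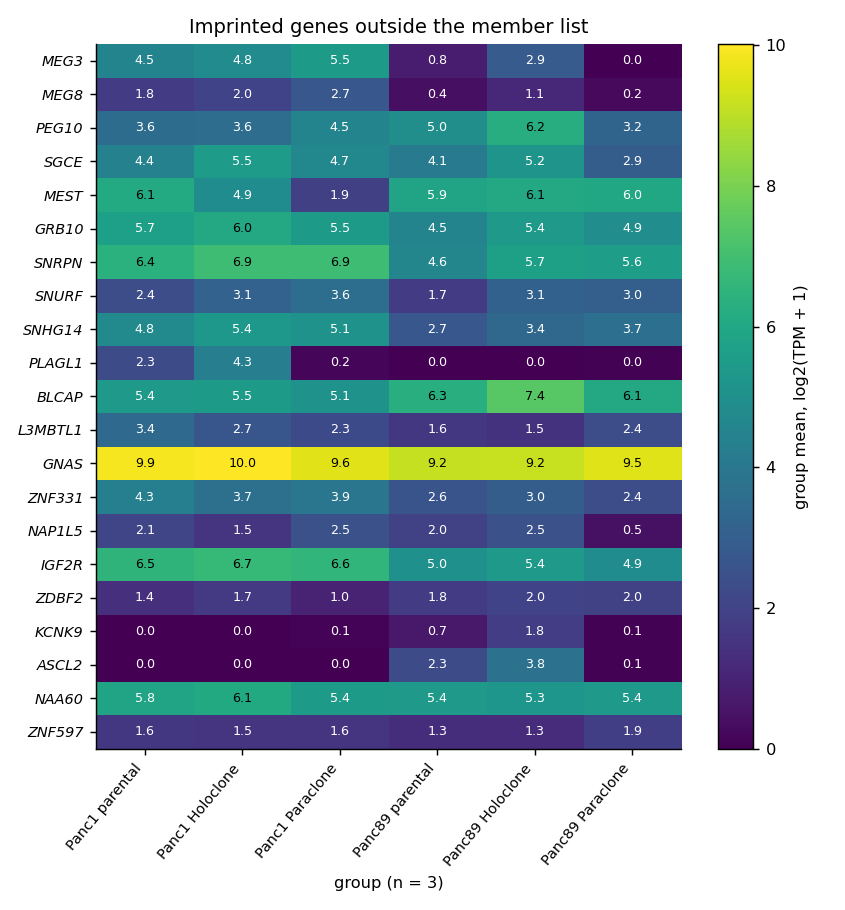
Group means in log2(TPM + 1) (color and printed value, n = 3 libraries) of the 21 tested imprinted genes outside the member list (rows) in the 6 groups (columns). PLAGL1 stands out in Panc1 Holoclone cells and ASCL2 in Panc89 Holoclone and parental cells, and GNAS is the most abundant gene in every column.

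IGF2 acts through IGF1R and insulin receptor forms, is cleared by IGF2R, and is released from binding proteins by pappalysins, which stanniocalcins inhibit. Of 18 genes of these receptors, adaptors and protease regulators, 15 were tested. In Panc1 Holoclone against Paraclone cells 6 were higher and 2 lower, against 27.4% and 9.97% of all genes. The counts were 4 and 3 after upper quartile scaling. IGF1R was higher in Holoclone cells by 1.21 (SE 0.17, adjusted p = 5.57e-05), at 21.9 ± 1.64 against 8.92 ± 1.00 TPM (SD, n = 3), with the adaptor GRB2 (0.98, SE 0.14) and the kinase subunit PIK3CA (0.71, SE 0.10). STC1, stanniocalcin, was lower (−4.84, SE 0.28, adjusted p = 3.84e-09), at 0.118 against 31.2 TPM, and so was the adaptor SHC1 (−1.12, SE 0.18, adjusted p = 0.000217). The receptor IGF1R was thus lower in the Panc1 cells with the most IGF2, and STC1 higher. IGF2R differed by 0.13 (SE 0.12, adjusted p = 0.422).

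Between the parental lines 6 of these genes were higher in Panc89 and 7 lower, against 27.5% and 38.5% of all genes. The counts were 6 and 5 after upper quartile scaling. STC1 was higher by 6.67 (SE 0.28; 179 against 0.759 TPM), IRS2, an insulin receptor substrate, by 2.26 (SE 0.27) and IRS1 by 0.59 (SE 0.17). Lower in Panc89 were the kinase AKT2 (−4.345, SE 0.10; 121 against 2468 TPM), SHC1 (−1.87, SE 0.18) and IGF2R (−1.48, SE 0.12). In the Panc89 clones, as a description, 4 were called higher and 4 lower in Holoclone cells, against 22.4% and 13.3% of all genes. STC1 had 97.8 TPM in Holoclone and 917.5 TPM in Paraclone libraries (−3.12) and AKT2 96.9 and 124 TPM (−0.36), while STC2 (1.56), IRS1 (0.76) and IGF2R (0.50) had positive differences. STC1 was lower in Holoclone than in Paraclone cells of both lines.

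Of a list of 17 genes known to act on H19 and IGF2 or their RNA, 15 were tested. In Panc1 Holoclone against Paraclone cells 7 were higher and 1 lower, against 27.4% and 9.97% of all genes. The counts were 6 and 1 after upper quartile scaling. Beside PLAGL1 (4.13), the RNA-binding protein IGF2BP1 was higher by 1.62 (SE 0.20, adjusted p = 1.57e-05) and CTCF by 1.05 (SE 0.16, adjusted p = 8.63e-05), at 35.4 ± 2.60 against 16.7 ± 2.54 TPM (SD, n = 3). IGF2BP3 was the lower one (−0.54, SE 0.11, adjusted p = 0.00131). In Panc1 Paraclone against parental cells 1 was higher and 8 lower, against 7.31% and 21.3% of all genes. The median was −0.45 against −0.17 over all genes, and the counts were 1 and 4 after upper quartile scaling. Between the parental lines 2 were higher in Panc89 and 8 lower, against 27.5% and 38.5% of all genes. The counts were 3 and 4 after upper quartile scaling. Among genes of at least 10 TPM, IGF2BP3 (−0.88, SE 0.11), the transcription factor E2F3 (−0.64, SE 0.14) and the cohesin subunit SMC3 (−0.53, SE 0.22) were lower. The cohesin subunit RAD21 was higher (0.845, SE 0.23). Under 10 TPM, PLAGL1 (−2.265; 0.00743 against 3.85 TPM) and LIN28B (−2.187) were lower and PLAG1 (1.468) was higher, each by more. CTCF differed by 0.19 (SE 0.16, adjusted p = 0.309) between the parental lines. Its binding was not measured, and its part in the H19 levels was not tested. In the Panc89 clones, as a description, 4 were called higher and 1 lower in Holoclone cells, against 22.4% and 13.3% of all genes. IGF2BP3 was at 0.99, RAD21 at 0.805, CTCF at 0.77 and E2F3 at −0.39.

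Genes with a pattern like that of H19, IGF2 and CDKN1C were ranked by Pearson's r of log2(TPM + 1) over the 18 libraries, among 10915 genes that reached a mean of 10 TPM in a group. The libraries share 2 lines and 4 clones, and the values are descriptions. For H19 the closest were PABPC1 (0.934), GJB6 (0.922), PXDN (0.897), NBN (0.896) and NXPH4 (0.893). GJB6, a connexin, had 24.7 TPM in parental Panc89, 11.2 TPM in Panc89 Holoclone and 0.0050 TPM in Panc89 Paraclone cells, the same order as H19, and PABPC1, which binds poly(A) tails, ran over a far narrower range, from 597 to 1241 TPM between group means. For IGF2 the closest were RNF128 (0.994), CORO2B (0.988), ADRA1B (0.984), SRGN (0.984) and TBXAS1 (0.983). For CDKN1C they were OCEL1 (0.943), ZBTB4 (0.919), LACTB (0.918), LAMTOR5 (0.897) and ABHD14B (0.896). Between H19 and CDKN1C r was −0.678.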

How the data were processed

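RNA of Panc1 and Panc89 parental, Holoclone and Paraclone cells was measured in 18 libraries, grouped by their deposited labels, 3 per group, and no column was left over. The authors isolated RNA from 3 passages per variant, made stranded mRNA libraries, ran kallisto 0.46.1 against Ensembl GRCh38 and imported scaled TPM with tximport. The deposited values are log2(TPM + 1) per gene symbol. Raised back they sum to 985339 to 988066 per library, so they hold no counts, depth is unknown, and no counting interval can be given.

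Groups were compared with limma 3.58.1 in R 4.3.3 (eBayes with trend, a mean for each of 6 groups, all 18 libraries) on 16093 genes that reached 1 TPM in 3 or more libraries. Two-sided p-values were adjusted by Benjamini-Hochberg over these genes, with a threshold of 0.05; the code was tested on simulated data. Members got no p-value in comparisons that use Panc89 clones. Positions come from GENCODE 44 and sequences from RefSeq GRCh38.p14.

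The members and gene lists were chosen with earlier results of these data known. The text names the 7 members; of each list the genes past the threshold with the largest absolute difference, up to 3 in each direction, with at least 10 TPM in the higher group where such genes exist; and the 5 genes most correlated with H19, IGF2 and CDKN1C. IGF2R and CTCF between groups, IGF2-AS, SLC22A18AS and NAP1L5 were named after their values were seen. The same holds for MUC6, MUC5AC, LINC02688, TH, MRPL23-AS1, PLAG1, LIN28B and, between the parental lines, PLAGL1. Alternatives were a pseudocount of 0.1, no filter, a fit of the compared groups alone, the replicate number as a block, upper quartile and median-of-ratios scaling, and leaving out each library. Same-numbered libraries of a line had deviations that correlated at −0.318 to 0.19 over 18 pairs, so the numbers do not pair them. The authors' own tests were not used.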

Additional observations from a re-analysis of the deposited data

Results flagged for a closer look

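The Holoclone minus Paraclone difference of H19 had opposite signs in the 2 lines. It was −0.675 on the log2 scale in Panc1, where all 3 Holoclone libraries lay below all 3 Paraclone libraries, and 7.133 in Panc89, where all 3 lay above. The difference between the lines was not tested, because H19 was chosen by its value in Panc89. The Panc1 value passed the threshold in 4 of 12 alternative settings.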

How the results depend on the processing

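The number of members called in Panc1 Holoclone against Paraclone cells was 5, and it was 2 without the filter on low values, 3 where the groups were compared alone and 3 to 4 without 1 library each. Between the parental lines it was 6, and 3 under upper quartile as well as median-of-ratios scaling, and 3 to 6 without 1 library each. In Panc1 Holoclone against parental cells it was 1, and 1 to 2 without 1 library each. In Panc1 Paraclone against parental cells, 3 members were called, and no alternative moved this number by over 1.5 times. IGF2, PHLDA2 and, between the parental lines, H19 kept each call in 12 of 12 alternatives; the unstable calls were those of H19, CDKN1C, KCNQ1 and SLC22A18. With a replicate block within each line, the members called were 4, 1, 3 and 5 in Panc1 Holoclone against Paraclone, Holoclone against parental, Paraclone against parental and the parental lines; the calls lost were those of KCNQ1 (adjusted p = 0.078 and 0.0857), and no other member's call changed. Signs turned only among differences that were not called. For CDKN1C, Holoclone minus Paraclone in Panc1 was −0.16 under upper quartile scaling, −0.15 under median-of-ratios scaling and −0.41 without Paraclone replicate 1, and Paraclone minus parental was 0.098 without that library; leaving out 1 library each gave −0.41 to 0.38 and −0.70 to 0.098. For H19, Paraclone minus parental in Panc1 was 0.21 and 0.20 under the scalings, 0.029 without parental replicate 3 and 0.087 without Paraclone replicate 3, and −0.080 to 0.087 over all fits without 1 library. The cause of these changes was not tested. Of the 288 tested values of single members under alternatives, 236 kept direction and side of the threshold, 43 lost the call, 1 gained it and 8 turned sign. Depth is unknown, and KCNQ1, KCNQ1OT1 and the IGF2 values of Panc89 lie at levels where a pseudocount of 1 sets the size of a difference. With 1 clone per variant and line, clone and variant cannot be told apart.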
